A study of Homo sapiens with 8 samples.

Results

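The E2F transcription factors and their DP partners were followed in multiple myeloma (MM) cell lines treated with THZ1, a covalent inhibitor of the kinase CDK7. This set held 10 genes, E2F1 to E2F8 with TFDP1 and TFDP2, of the 63677 genes in each count table. They were taken by symbol as the known family, and each symbol matched 1 Ensembl gene. RNA-seq was done on JJN3 and H929, established MM cell lines, after 24 h with THZ1 at 50 nM or with its vehicle DMSO. Each of the 4 combinations of line and treatment had 2 libraries, 8 in all, and the total count per library lay between 17476443 and 19194371. Where 0 was counted, an expected count of up to about 3 remains possible at 95% confidence, for counting error only. A count of 3 was worth 0.156 to 0.172 CPM (each count divided by its library's total and rescaled). Nothing in the sources used here says that replicates came from separate cultures, so p-values measure the spread between these libraries, which may be technical.

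E2F proteins bind DNA in front of the genes for DNA replication and for the entry into S phase. E2F1, E2F2 and E2F3 act mainly as activators, E2F4 and E2F5 mainly repress together with the pocket proteins p107 and p130, E2F6 represses with Polycomb proteins, and E2F7 and E2F8 are atypical repressors that bind DNA without a DP partner. The others need TFDP1 or TFDP2 for DNA binding. Cyclin-dependent kinases release the activators by phosphorylating RB, and CDK7 is both the kinase that activates those kinases and a kinase of RNA polymerase II.

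The libraries labelled H929 did not form one kind of sample. FGFR3, which the translocation carried by H929 activates, was counted 45 and 285 times in H929-labelled DMSO libraries, 14117 and 13411 times in H929-labelled THZ1 libraries, and 0 to 2 times in JJN3. Of light chain V gene counts, lambda genes took 99.99% and 97.96% for the H929 DMSO label, 0.212% and 0.211% for the H929 THZ1 label, and 0.257% to 0.391% for JJN3. MAF, the translocation gene of JJN3, was counted 18006 and 16310 under the H929 DMSO label, close to the 16305 and 16840 of JJN3 DMSO. Under the H929 THZ1 label it was counted 2729 and 2942 times. The authors also describe aberrant MAF activation in H929. CCND1 was close between the H929 labels, with 1766 and 1806 counts under DMSO and 1540 and 1566 under THZ1. In JJN3 it had 0 to 2 counts. From the H929 DMSO to the H929 THZ1 label WHSC1 went from 6544 and 7026 counts to 15702 and 16276. CCND2 went from 13737 and 12324 counts to 8051 and 8178. Across 13310 genes, which are not independent replicates, log2 CPM correlated between the H929 DMSO and H929 THZ1 labels at 0.746 to 0.776, against 0.962 to 0.969 for JJN3 DMSO and THZ1 and at least 0.994 between replicates. Under the H929 labels, what THZ1 did and which cells were sequenced cannot be told apart, so the difference between them is given as a difference between libraries as labelled. Replicate 2 of H929 DMSO also held counts of genes near 0 in replicate 1, such as 205 against 0 for CDKN2C and 88 against 4 for UBE2C. All 8 libraries expressed plasma cell markers, with 9 or 10 of 10 over 3 counts. Their summed level was 4958 and 4993 CPM in JJN3 DMSO, 4415 and 4404 in JJN3 THZ1, 3616 and 3871 under the H929 DMSO label, and 12935 and 12938 under the H929 THZ1 label. Single markers did not all follow the sum, of which IGJ was the largest part. IGJ and PRDM1 were higher with THZ1 in JJN3. Under the H929 THZ1 label MZB1 and CD38 were lower than under the H929 DMSO label, and the other markers of the list were higher. The 10 markers of other blood cells summed to 2.19 to 36.9 CPM, highest under H929 THZ1, where CD3E had 640 and 650 counts. Their part in the results was not tested.

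The promoters of the family members are shown because the E2F1 promoter is itself a textbook target of E2F proteins. The letters TTTNNCGC, with C or G at each N, were searched on both strands of the 300 bases around each RefSeq start (250 before to 50 after, GRCh38.p14). The table held promoters for 8 of the 10 genes and none for E2F5 and E2F8. Windows of 30 bases are given 5′ to 3′ on the strand of the gene, with the match in capitals, and positions are counted from the transcription start. E2F1 has a pair of overlapping windows on the minus strand, chr20:33686400-33686429 (match at -33 to -26) and chr20:33686387-33686416 (match at -20 to -13). E2F2 has a match at -42 to -35 in chr1:23531257-23531286, minus strand. E2F3 has one at -53 to -46 in chr6:20401815-20401844, plus strand, and TFDP1 one at -120 to -113 in chr13:113584622-113584651, plus strand. All these windows lie before the annotated start of the gene, outside its exons.
E2F1, distal: gtggctctttcGCGGCAAAaaggatttggc
E2F1, proximal: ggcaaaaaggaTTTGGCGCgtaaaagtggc
E2F2: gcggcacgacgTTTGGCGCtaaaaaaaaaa
E2F3: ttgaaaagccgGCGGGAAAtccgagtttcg
TFDP1: gggcgccgaagGCGCGAAAaggcgcgcagg
The proximal E2F1 match and the E2F2 match are the same 8 letters. Among all 27305 genes given a promoter 3.99% had a match in a window of this length, and the windows of E2F4, E2F6, E2F7 and TFDP2 and the other E2F3 window held none of these letters.

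All 10 genes were expressed in every library and passed the filter on low counts. Levels between genes are compared per kb of exon, since the genes differ in length. In JJN3 with DMSO, TFDP1 had the highest level, 79.2 ± 1.38 CPM per kb (SD, n = 2), followed by E2F4 (41.2 ± 1.88), E2F2 (31.1 ± 1.87), E2F1 (29.7 ± 0.783) and E2F8 (15.8 ± 0.899). E2F5 (10.7 ± 0.932) and E2F3 (9.92 ± 0.265) were next, then TFDP2 (7.31 ± 0.217), E2F7 (5.42 ± 0.347) and E2F6 (2.97 ± 0.0760). The values of E2F1 and E2F2 and those of E2F3 and E2F5 differed by less than their spread. Exon length matters most for E2F5, which reached 32.5 CPM per kb when the canonical transcript (1964 bases) replaced all merged exons (5993 bases). Under the H929 DMSO label the highest member per kb was E2F4 (76.5 ± 2.10) and not TFDP1 (66.03 ± 0.734), and under the H929 THZ1 label TFDP1 (60.2 ± 3.37) was followed by E2F2 (47.0 ± 0.988). With canonical transcripts E2F4 (56.3 CPM per kb) came before E2F2 (49.4) under the H929 THZ1 label, and it was again highest under the H929 DMSO label.

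**Figure D1:**
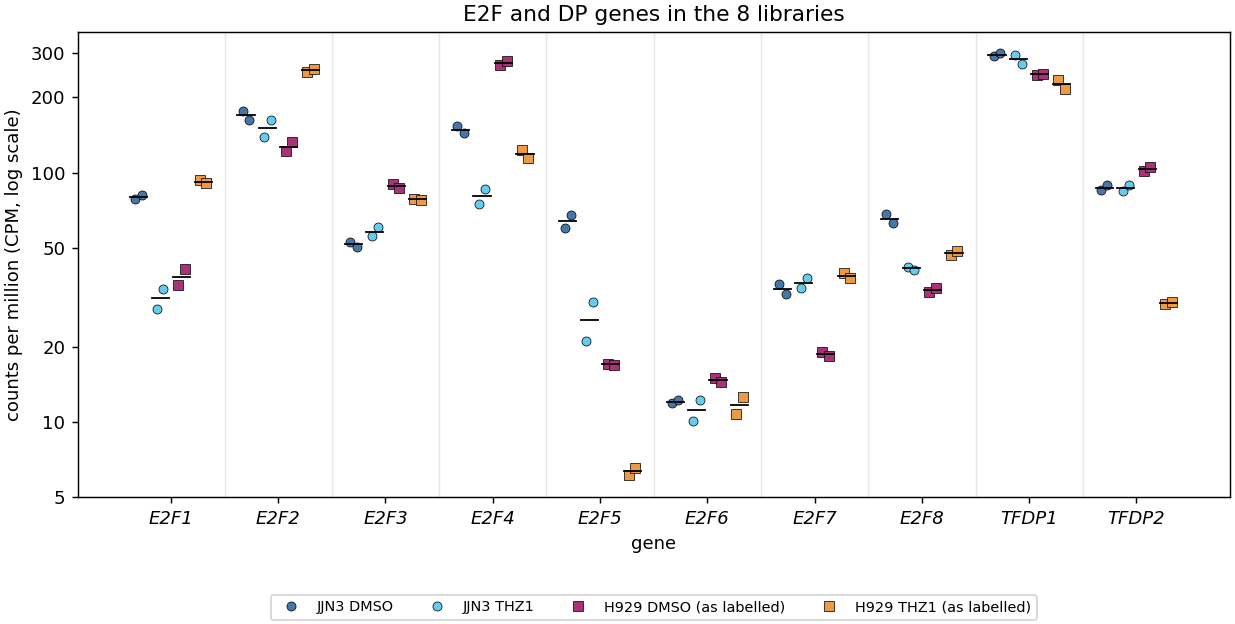
Level of each E2F and DP gene in CPM (log axis) in the 8 libraries. Points are libraries, short bars are means of 2 libraries, and H929 groups are as labelled. E2F1, E2F4, E2F5 and E2F8 of JJN3 were lower in both THZ1 libraries than in both DMSO libraries, whereas E2F1 was highest under the H929 THZ1 label.

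To ask which members differed after THZ1, JJN3 with THZ1 was compared with JJN3 with DMSO. E2F1, E2F5, E2F4 and E2F8 fell, and no member rose past the threshold. A call took a log2 fold change beyond 0.5 together with an adjusted p under 0.05 by edgeR's quasi-likelihood test (Benjamini-Hochberg over 13984 genes). Thus 4 of 10 members were lower and 0 higher, where 21.3% of all genes tested were lower and 20.6% higher. At an unadjusted p under 0.05, 1 member (E2F3) lay above 0, and DESeq2 also called 4 lower and 0 higher. These libraries hold the RNA of all cells, so fewer cells in a phase of the cell cycle and less RNA per cell cannot be told apart. Levels and fold changes here are relative to the other RNA of each library and are not amounts per cell. A change in the total RNA of a cell would therefore not show.

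Of the activators, E2F1 (ENSG00000101412, chr20:32263283-32274191, minus strand, GRCh37) had 78.5 and 81.5 CPM with DMSO and 28.4 and 34.3 CPM with THZ1. The groups were far apart, and the fitted level was 2.37-fold lower with THZ1 (log2 fold change -1.25, SE 0.0944, edgeR adjusted p = 2.16e-06). E2F2 (ENSG00000007968, chr1:23832930-23857725, minus strand) had 177.0 and 162.5 CPM with DMSO and 139.3 and 162.8 with THZ1, so the groups overlapped. Its log2 fold change of -0.07 had a 95% interval of -0.26 to 0.13 (edgeR adjusted p = 0.549). E2F3 (ENSG00000112242, chr6:20402110-20493945, plus strand) had 52.5 and 50.5 CPM with DMSO and 55.4 and 60.5 with THZ1. The THZ1 libraries were both above the DMSO libraries, but the difference was small (0.27, SE 0.0837, edgeR adjusted p = 0.0152) and under the fold limit. So 1 of the 3 activators fell in JJN3, and the promoter windows of all 3 hold the E2F letters shown above.

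E2F4 and E2F5, the partners of p107 and p130, were both lower. E2F4 (ENSG00000205250, chr16:67226058-67232821, plus strand) had 153.1 and 143.5 CPM with DMSO and 75.1 and 85.9 with THZ1, 1.72-fold lower (log2 fold change -0.78, SE 0.0849, edgeR adjusted p = 2.0e-05). E2F5 (ENSG00000133740, chr8:86089389-86129387, plus strand) had 59.9 and 67.8 CPM with DMSO and 21.1 and 30.2 with THZ1. It was 2.31-fold lower (-1.21, SE 0.133, edgeR adjusted p = 2.11e-05), the widest error of the 4 genes that fell. C8orf59 (RBIS), on the opposite strand, overlaps 16.5% of the E2F5 exon bases and was itself lower (-0.75, edgeR adjusted p = 0.000127), and an lncRNA overlaps 2.22%. Whether counting used the strand is not given in the sources used here, so reads of these genes and of E2F5 cannot be told apart where they overlap.

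E2F6 (ENSG00000169016, chr2:11584501-11606303, minus strand), the Polycomb-linked repressor, was the least abundant member in JJN3 DMSO by either measure, with 11.9 and 12.3 CPM with DMSO and 10.1 and 12.3 with THZ1. Its interval ran from -0.32 to 0.30 around a log2 fold change of -0.01 (edgeR adjusted p = 0.955). The atypical repressors parted. E2F8 (ENSG00000129173, chr11:19245610-19263167, minus strand) fell from 68.0 and 62.8 CPM to 41.9 and 40.8 CPM, 1.47-fold (log2 fold change -0.56, SE 0.0887, edgeR adjusted p = 0.00028), close to the fold limit. E2F7 (ENSG00000165891, chr12:77415028-77459349, minus strand) had 35.6 and 32.5 CPM with DMSO and 34.6 and 37.7 with THZ1. These groups overlapped, and the log2 fold change of 0.19 had an interval of -0.03 to 0.40 (edgeR adjusted p = 0.12).

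The DP genes showed no detected difference in JJN3. TFDP1 (ENSG00000198176, chr13:114239036-114295788, plus strand) had 293.0 and 300.3 CPM with DMSO and 295.5 and 273.3 with THZ1 (0.04, interval -0.15 to 0.24, edgeR adjusted p = 0.683). TFDP2 (ENSG00000114126, chr3:141663270-141868386, minus strand) had 85.1 and 88.8 CPM with DMSO and 84.6 and 89.2 with THZ1 (0.10, interval -0.07 to 0.27, edgeR adjusted p = 0.274). For both genes the groups overlapped. Sizes between these bounds remain possible for E2F2, E2F6, E2F7, TFDP1 and TFDP2.

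**Figure D2:**
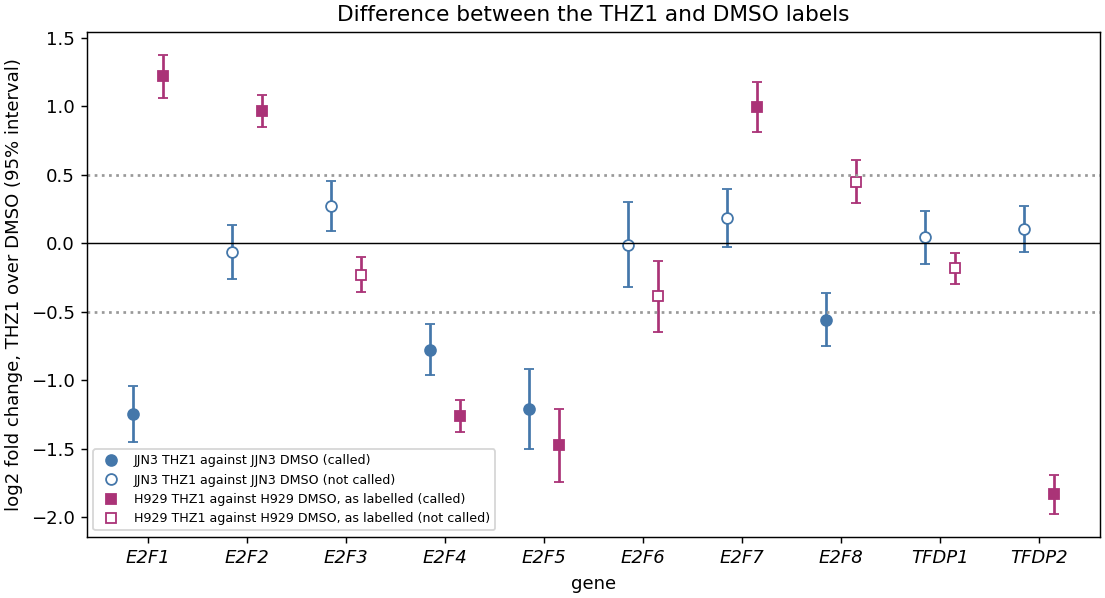
Log2 fold change of each member between the THZ1 and DMSO labels, with 95% intervals from edgeR, for JJN3 (circles) and for the libraries labelled H929 (squares). Filled symbols passed the adjusted p and fold limits, and dotted lines mark the fold limit of 0.5. E2F1 lay at -1.25 in JJN3 and at 1.22 under the H929 labels, while E2F4 and E2F5 were lower in both.

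Between the H929 labels, 3 members were lower and 3 higher with THZ1, where 32.6% of all 14863 genes tested were lower and 33.1% higher. E2F1 had 35.4 and 41.0 CPM in the libraries labelled DMSO and 93.3 and 90.6 in those labelled THZ1, 2.33-fold higher (log2 fold change 1.22, SE 0.0729, edgeR adjusted p = 2.39e-10). E2F2 went from 121.6 and 132.3 CPM to 252.9 and 260.5 CPM (0.97, SE 0.055, edgeR adjusted p = 1.26e-10). E2F7 had 19.0 and 18.4 CPM under DMSO and 39.5 and 37.6 under THZ1 (1.00, SE 0.0859, edgeR adjusted p = 2.29e-08). These 3 genes were thus 1.95- to 2.33-fold higher, with no overlap between the groups, as for 90.9% of all genes tested.

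TFDP2 had the largest difference of the members under these labels, 101.0 and 105.3 CPM with DMSO and 29.6 and 30.2 with THZ1, 3.57-fold lower (-1.83, SE 0.0665, edgeR adjusted p = 5.41e-13). E2F4 had 269.8 and 280.5 CPM with DMSO and 123.3 and 114.2 with THZ1 (-1.26, SE 0.0554, edgeR adjusted p = 5.21e-12). E2F5 had 17.2 and 17.0 CPM with DMSO and 6.13 and 6.56 with THZ1 (-1.48, SE 0.126, edgeR adjusted p = 2.02e-08). In the plot of levels TFDP2 and E2F5 were at their lowest of all 8 libraries under the H929 THZ1 label, and E2F4 was at its highest under the H929 DMSO label.

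The other 4 members passed the adjusted p but not the fold limit under the H929 labels. E2F8 had 33.2 and 34.4 CPM with DMSO and 46.8 and 48.5 with THZ1 (0.45, SE 0.0735, edgeR adjusted p = 3.62e-05). E2F6 had 15.1 and 14.5 against 10.7 and 12.6 CPM (-0.39, edgeR adjusted p = 0.00802). E2F3 had 90.3 and 86.8 against 78.3 and 77.9 CPM (-0.23, edgeR adjusted p = 0.0021), and TFDP1 had 245.3 and 249.1 against 234.2 and 216.4 CPM (-0.18, edgeR adjusted p = 0.00562). No member overlapped between the H929 labels, as was true of 90.9% of all genes, while 5 of 10 did so in JJN3, where 79.9% of all genes did not. Without replicate 2 of H929 DMSO the counts of called members stayed at 3 lower and 3 higher, and E2F1 lay at 1.34.

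The H929-label and JJN3 differences between THZ1 and DMSO were compared as the interaction over all 8 libraries, called at an adjusted p under 0.05. Of the 10 members 4 were higher under the H929 labels than in JJN3 and 3 lower, with 32.3% of all 16122 genes higher, 29.7% lower and 62.0% called in all. E2F1 differed most (2.48 on the log2 scale, SE 0.124, edgeR adjusted p = 8.87e-11), since it fell in JJN3 and was higher under the H929 labels. E2F4 was lower with THZ1 in both, by 0.47 more under the H929 labels (interaction -0.47, SE 0.105, edgeR adjusted p = 0.00099). For E2F5, also lower in both, no interaction was detected (-0.26, interval -0.68 to 0.17, edgeR adjusted p = 0.281). These differences hold the source of the cells as well as any treatment.

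The libraries labelled H929 were also set beside JJN3 under the same treatment label. These comparisons share their libraries with those above. With DMSO, E2F5 (log2 fold change -1.88), E2F1 (-1.05), E2F8 (-0.93) and E2F7 (-0.85) were lower and E2F4 (0.91) and E2F3 (0.80) higher in the libraries labelled H929, with edgeR adjusted p-values of at most 8.64e-07. That is 4 lower and 2 higher of 10, where 32.6% of 14590 genes were lower and 33.0% higher. With THZ1, E2F1 (1.46) and E2F2 (0.67) were higher and E2F5 (-2.11) and TFDP2 (-1.63) lower, with edgeR adjusted p-values of at most 1.85e-05. Here 2 were lower and 2 higher, beside 32.5% and 34.0% of 14981 genes.

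Across the 4 groups E2F5 varied most, with a 10.1-fold span between the mean CPM of JJN3 DMSO and of the H929 THZ1 label. Its order was JJN3 DMSO (63.9 ± 5.59 CPM), JJN3 THZ1 (25.7 ± 6.46), H929 DMSO (17.1 ± 0.141) and H929 THZ1 (6.35 ± 0.306), and no neighbours overlapped. TFDP2 spanned 3.45-fold, E2F4 3.42-fold and E2F1 2.93-fold. E2F6 and TFDP1 varied least, 1.32-fold each. Neighbouring groups overlapped for E2F6 (JJN3 DMSO, H929 THZ1 and JJN3 THZ1), E2F7 (H929 THZ1, JJN3 THZ1 and JJN3 DMSO), and, between JJN3 DMSO and JJN3 THZ1, for E2F2, TFDP1 and TFDP2.

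The make-up of the E2F transcripts was compared as shares of the summed CPM per kb of E2F1 to E2F8. In JJN3 the activators E2F1 to E2F3 held 48.0% and 48.3% with DMSO and 52.4% and 53.1% with THZ1, and E2F4 with E2F5 held 35.2% and 35.5% and then 27.4% and 28.4%. The sums behind these shares were both lower with THZ1, 71.7 and 69.8 and then 46.8 and 54.2 CPM per kb for the activators, and 52.6 and 51.2 and then 24.4 and 28.9 CPM per kb for E2F4 with E2F5. So the share of the activators was higher in both THZ1 libraries while their summed level was lower. In the libraries labelled H929 the activators held 36.3% and 37.01% with DMSO and 63.4% and 64.2% with THZ1. There E2F4 and E2F5 held 53.5% and 53.2% and then 23.3% and 21.9%. With canonical transcript lengths the activators of JJN3 held 35.9% and 35.7% and then 42.0% in both THZ1 libraries. E2F4 with E2F5 then held 50.3% and 51.1% in JJN3 DMSO and 40.2% and 42.0% in JJN3 THZ1. So which class was largest in JJN3 DMSO depends on the length used. The direction of the difference between THZ1 and DMSO did not.

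**Figure D3:**
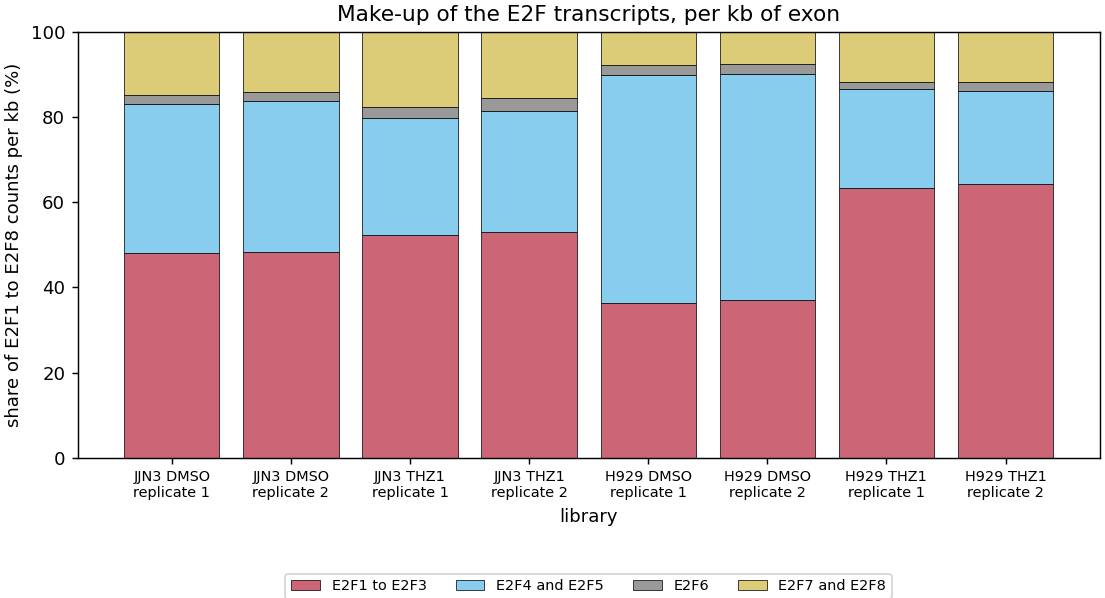
Share of E2F1 to E2F8 transcripts (CPM per kb of merged exon, summing to 100% per library) held by the activators, E2F4 with E2F5, E2F6 and the atypical repressors in each of the 8 libraries. The activators' share was 48.0% to 53.1% in JJN3 and went from 36.3% and 37.01% to 63.4% and 64.2% between the H929 labels. With canonical transcript lengths E2F4 with E2F5 held the largest share in JJN3 DMSO.

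The targets of the family were then counted from a list of 65 known G1/S genes of DNA replication and the G1/S transition. In JJN3, 38 of 65 were lower and 0 higher with THZ1 (21.3% and 20.6% of all genes), with a median log2 fold change of -0.68 against 0.00 over all genes. By unadjusted p under 0.05, 3 lay above 0. The list holds 4 members of the family, and without them 36 of 61 were lower. PRIM1, the catalytic primase subunit, had 103.7 and 116.2 CPM with DMSO and 30.5 and 34.2 with THZ1, 3.16-fold lower (edgeR adjusted p = 7.04e-07). POLA2, a subunit of DNA polymerase alpha, had 172.5 and 175.4 CPM with DMSO and 67.0 in both THZ1 libraries, 2.42-fold lower (edgeR adjusted p = 9.31e-07). Not all targets moved: TK1, TYMS and MCM2, enzymes and a helicase subunit of S phase, had log2 fold changes of 0.00, 0.13 and -0.10, and were picked as examples after their values were seen. In contrast, 8 of the 40 G2/M genes bound by the DREAM complex were lower and 6 higher, with a median of -0.04. The largest falls there were AURKB (-1.49) and CCNB1 (-1.07), a mitotic kinase and a mitotic cyclin, and the largest rises CENPE (0.80) and CENPF (0.77), both kinetochore proteins.

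Between the H929 labels 26 of the 65 G1/S genes were lower and 12 higher (median -0.28), and 5 of 40 G2/M genes were lower and 15 higher (median 0.25), beside the background of 32.6% and 33.1%. Without replicate 2 of H929 DMSO the G1/S genes were 22 lower and 14 higher. RPA3 (-2.03) and PCNA (-1.75), a single-strand binding subunit and the replication clamp, were the lowest of the G1/S genes, and CHAF1B (1.54), of the chromatin assembly factor, and CCNE1 (1.53), cyclin E1, the highest. CCNE1 had 17.4 and 18.5 CPM with DMSO and 53.8 and 53.1 with THZ1 under these labels, and 64.1 and 71.3 and then 28.7 and 39.8 CPM in JJN3, where it fell (-0.88). Among the G2/M genes TOP2A (-1.12) and CENPF (-0.90) were lowest and CDC25C (1.42) high, and UBE2C went from 4 and 88 counts to 3780 and 3614. In the interaction 35 of the 65 G1/S genes were higher and 16 lower, beside 32.3% and 29.7% of all genes.

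**Figure D4:**
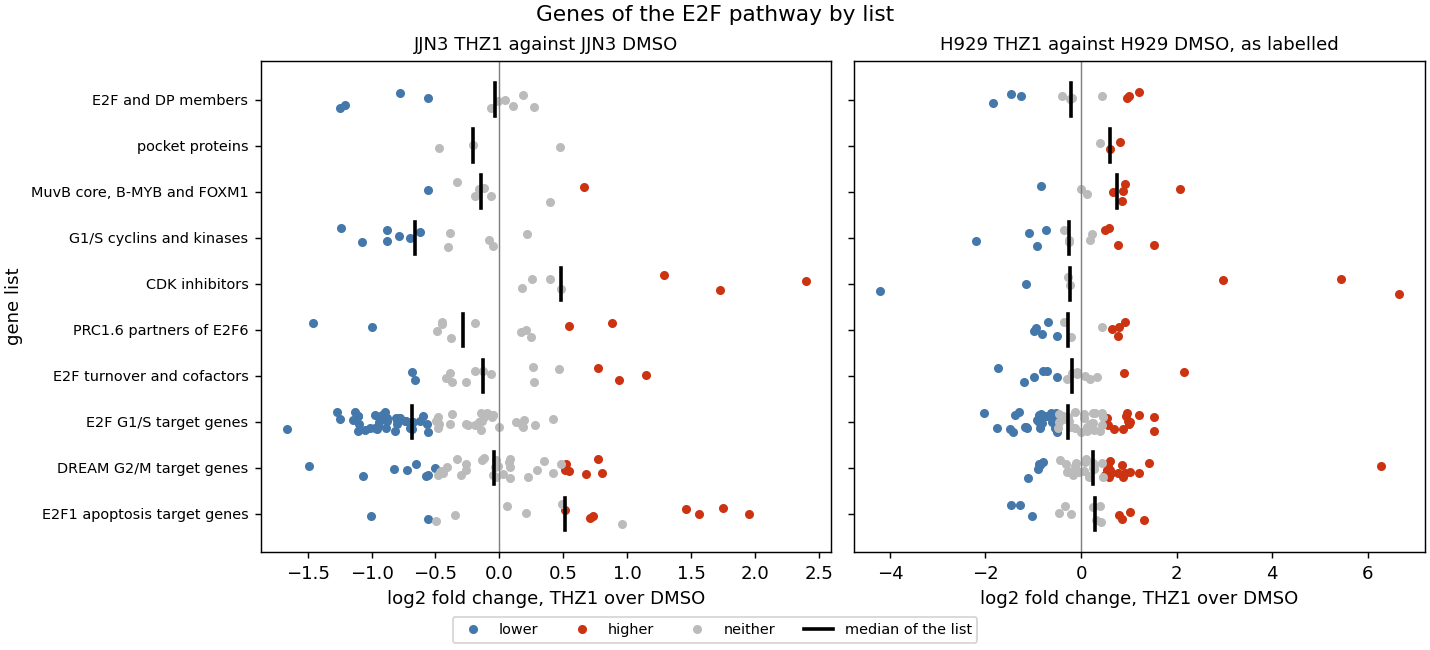
Log2 fold change of each tested gene of the pathway lists between the THZ1 and DMSO labels, for JJN3 (left) and the libraries labelled H929 (right). The 2 horizontal axes differ in range. Blue and red points are genes called lower and higher, grey points were not called, and black bars are list medians. The G1/S targets of JJN3 lay mostly below 0 (38 of 65 called lower, median -0.68), and the G2/M genes lay on both sides (median -0.04).

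Promoter letters did not part the G1/S genes in JJN3. Of the 54 genes of the list with a RefSeq promoter 29 had a match to TTTNNCGC (53.7%), many of these genes being known for their E2F sites, and of the 33 G2/M genes 3 had one (9.09%). In JJN3, 15 of 29 G1/S genes with a match were lower and 15 of 25 without one, with medians of -0.60 and -0.68. Among all 634 tested genes with a match 25.1% were lower and 18.0% higher, beside 22.6% and 18.6% of the 9268 tested genes with a promoter. For the H929 labels 16 of 29 with a match were lower and 3 higher, and 7 of 25 without one were lower and 9 higher. Among all 655 genes with a match tested there, 32.1% were lower and 27.9% higher. Of all 9842 tested genes with a promoter, 32.6% were lower and 31.6% higher, so a match hardly changed these shares over all genes.

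The pocket proteins, which hold E2Fs inactive, passed no fold limit in JJN3. RB1 had 203.7 and 192.0 CPM with DMSO and 158.7 and 160.8 with THZ1 (-0.20, edgeR adjusted p = 0.0457). RBL1 (p107), which is also an E2F target, had 99.0 and 88.2 against 58.7 and 66.8 CPM (-0.47, edgeR adjusted p = 0.00102). RBL2 (p130) lay on the other side, with 134.0 and 133.6 against 168.3 and 177.6 CPM (0.47, edgeR adjusted p = 0.000314). With the H929 labels RB1 (0.81) and RBL2 (0.61) were higher and RBL1 (0.39) passed the adjusted p but not the fold limit. Of the 8 genes of the MuvB core, MYB family and FOXM1, which join or follow the pocket proteins in cell cycle control, LIN52 (-0.56) was lower and LIN54 (0.66), the DNA-binding subunit, higher in JJN3, beside 21.3% and 20.6% of all genes. Of these 8, 1 was lower under the H929 labels, RBBP4 (-0.84), and 5 higher, led by MYBL1 (2.06) and FOXM1 (0.92), beside 32.6% and 33.1% of all genes.

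Upstream of the E2Fs, 7 of 12 tested G1/S cyclins and kinases were lower in JJN3 and 0 higher (median -0.66), beside 21.3% and 20.6% of all genes, with 0 above 0 by unadjusted p under 0.05. Of these 7, CCNE1, CCNE2, CCNA2 and CDC25A are E2F targets too and were already counted among the 38 G1/S genes. CDK4, a kinase that starts RB phosphorylation, had 70.9 and 79.7 CPM with DMSO and 25.0 and 34.3 with THZ1, 2.36-fold lower (edgeR adjusted p = 1.05e-05). CCND2, its cyclin, had 483.5 and 500.9 against 229.3 and 205.5 CPM (-1.07, edgeR adjusted p = 5.19e-06). CDK6, also in this list, was not called, with 744.9 and 693.0 against 828.5 and 719.8 CPM (0.21, edgeR adjusted p = 0.117). The kinase that THZ1 binds, CDK7, had 26.6 and 24.4 against 17.0 and 19.4 CPM (-0.38, edgeR adjusted p = 0.0128), its cyclin CCNH -0.40 (edgeR adjusted p = 0.00144) and its partner MNAT1 -0.08 (edgeR adjusted p = 0.469), none past the fold limit. Of 13 tested under the H929 labels 4 were lower and 4 higher, close to the 32.6% and 33.1% of all genes. CDK7 was lower there (-2.20, from 49.6 and 50.5 to 11.5 and 10.99 CPM) and CCNH higher (0.77), with MNAT1 at 0.23. Under the same labels CDK4 was lower (-1.10) and CDK6 higher (0.51).

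Of the 7 CDK inhibitors 3 were higher in JJN3 and 0 lower, beside 20.6% and 21.3% of all genes, with 0 below 0 at an unadjusted p under 0.05. CDKN2D, the p19 inhibitor of CDK4 and CDK6, had 3.33 and 2.99 CPM with DMSO and 13.8 and 17.2 with THZ1, 5.26-fold higher (edgeR adjusted p = 1.74e-06). CDKN1C (p57) was 3.30-fold higher, from 14.1 and 13.4 to 40.6 and 43.9 CPM (edgeR adjusted p = 9.01e-07). CDKN1A (p21) was higher as well (1.29 on the log2 scale). Between the H929 labels 2 were lower, CDKN1C (-4.21) and CDKN2A (-1.14), and 3 higher, CDKN1A (5.43, from 73 and 127 to 4469 counts in each THZ1 library), CDKN2D (2.97) and CDKN2C, beside 32.6% lower and 33.1% higher of all genes. CDKN2C went from 0 and 205 counts to 10835 and 10459.

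The partners of single members were counted in the same way, against 21.3% lower and 20.6% higher of all genes in JJN3 and 32.6% and 33.1% between the H929 labels. Of the 12 PRC1.6 genes, which form the Polycomb complex of E2F6, 2 were lower in JJN3, RING1 (2.74-fold), a ubiquitin ligase of histone H2A, and L3MBTL2 (1.99-fold), a reader of the complex, and 2 higher, RYBP (0.88) and HDAC1 (0.54), fewer than the share of all genes in each direction. For the H929 labels 5 were lower, led by MAX (-0.98), the DNA-binding partner of MGA, and WDR5 (-0.94), and 4 higher, led by YAF2 (0.92) and PCGF6 (0.80). Of 15 genes for the turnover and cofactors of E2Fs, 2 were lower in JJN3, CCNF (-0.68), a ubiquitin ligase subunit that marks the activators for degradation, and UXT (-0.66). The 3 higher were the acetyltransferases CREBBP (1.15), EP300 (0.94) and KAT2B (0.77), again no more than the share of all genes. Under the H929 labels 6 were lower, led by KDM1A (-1.73), a histone demethylase, and PHB (-1.19), prohibitin, and 2 higher, KAT2B (2.16) and FZR1 (0.91), an activator of the anaphase-promoting complex.

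Of the 15 genes through which E2F1 is known to act on apoptosis, 2 were lower in JJN3 and 7 higher, beside 21.3% and 20.6% of all genes, with a median of 0.52. BBC3 (PUMA), a BH3-only protein, went from 49 and 48 counts to 125 and 161, 3.36-fold higher (edgeR adjusted p = 3.3e-05). HRK, of the same class, was also called higher but on 3 counts in each DMSO library and 10 and 11 in the THZ1 libraries. PMAIP1 (NOXA), another BH3-only protein, was 2.01-fold lower. Under the H929 labels 3 of 14 were lower, led by BCL2L11 (BIM, -1.46) and PMAIP1 (-1.28), and 4 higher, among them BNIP3 (1.03), both fewer than the 32.6% and 33.1% of all genes.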

How the data were processed

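RNA of 8 libraries (50 base single-end reads per the labels) was analysed from the deposited tables. The authors aligned reads to hg19 with STAR 2.5.2a, kept uniquely mapping reads and deposited raw counts per Ensembl gene from featureCounts, and their strand setting is not given in the sources used here. Their DESeq2 1.12.4 tables hold their own fold changes and p-values, and only gene symbols were taken from the JJN3 table.

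Groups and replicate numbers came from the labels. Counts were tested with edgeR 4.0.16 in R 4.3.3 (TMM, filterByExpr, quasi-likelihood test, Benjamini-Hochberg over all genes tested), with the 4 libraries of each comparison, or all 8 for the interaction. Levels are CPM, counts scaled to the library total. Exon lengths and positions came from GENCODE 44 on GRCh37, promoters from RefSeq (GRCh38.p14). The authors counted reads on Ensembl hg19 gene models, whose exons may differ from these. Levels per kb and the shares built on them are therefore approximate.

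The members and lists were chosen with earlier results of these data known, so the counts of called list genes are descriptions. Named were all members, in each list the 2 called genes that fell most and the 2 that rose most, the pocket proteins, and CDK7 with its partners. Some genes that this rule names are not reported here. Alternatives were DESeq2 1.42.0, its size factors or total counts, other filters and fold limits, 1 fit of all libraries, the replicate block and leaving out each library. The functions were tested on simulated data. Biological coefficients of variation were 0.0740 in JJN3 and 0.0432 between the H929 labels. TFDP3 and E2F4P1, the near copies found, had at most 1 count per library.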

Additional observations from a re-analysis of the deposited data

Results flagged for a closer look

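For 7 of the 10 members the difference between THZ1 and DMSO was not the same under the H929 labels as in JJN3, by edgeR's test of the interaction over all 8 libraries. The difference of the log2 fold changes (H929 labels minus JJN3) was 2.48 for E2F1, 1.04 for E2F2, 1.02 for E2F8 and 0.82 for E2F7. It was -1.93 for TFDP2, -0.49 for E2F3 and -0.47 for E2F4. Adjusted p-values of these edgeR tests lay between 8.87e-11 and 0.00099. Of all genes tested 62.0% passed this test. Light chain and FGFR3 counts differ between the H929 DMSO and H929 THZ1 labels, where treatment and cell source cannot be told apart.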

How the results depend on the processing

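Of 580 log2 fold changes of members under the alternatives, 555 kept their direction and side of the threshold, 8 newly passed it and 17 changed sign, none of those 17 called in either fit. In JJN3, E2F6 was 0.0059 with DESeq2's size factors and 0.0078 with the 1 CPM filter, and with total counts TFDP1 was -0.060 and TFDP2 -0.00024. Between the THZ1 labels E2F6 was 0.063 with total counts and 0.0081 without a filter, and E2F7 was -0.013 with DESeq2's size factors, -0.0082 with the 1 CPM filter and -0.019 in the fit of all libraries. Leaving out 1 library changed further signs, with ranges in JJN3 of -0.15 to 0.015 for E2F2, -0.13 to 0.097 for E2F6 and -0.043 to 0.13 for TFDP1. These ranges were -0.14 to 0.11 for E2F6 and -0.031 to 0.069 for E2F7 between the THZ1 labels, and -0.45 to 0.016 for E2F5 in the interaction, where E2F5 was called at -0.45 without JJN3 THZ1 replicate 1. Counts moved mainly with the fold limit. With a limit of 1, members were 2 lower in JJN3, 1 higher between the H929 labels, 2 lower and 0 higher between the DMSO labels and 1 higher between the THZ1 labels, and the G1/S genes 11 lower in JJN3 and 9 lower and 4 higher between the H929 labels. With no limit, members were 1 higher in JJN3, 6 lower between the H929 labels, 4 higher between the DMSO labels and 4 higher between the THZ1 labels, and the G1/S genes 2 higher in JJN3 and 23 higher between the H929 labels. The shares of all genes given above for these comparisons are for the limit of 0.5 and do not apply to these counts. Shares at the other limits are not given here, so the counts describe the effect of the limit only. Without 1 library, members lower in the interaction ranged from 3 to 5 (5 without JJN3 THZ1 replicate 1), members between the THZ1 labels 2 to 3 lower and 2 to 3 higher, and G1/S genes 38 to 40 lower in JJN3 and 22 to 29 lower and 10 to 14 higher between the H929 labels. A library left alone in its group is assumed to vary like the others. Total counts moved the median log2 fold change of all genes in JJN3 from 0.00 to -0.10 and that of the interaction from 0.04 to 0.18. The replicate numbers did not pair the samples (correlations of deviations -0.039 to 0.026). With the replicate block 4 members were lower in JJN3 and 3 lower and 3 higher between the H929 labels, and no count moved by over 1.5 times. With 2 libraries a group, sizes inside the intervals given remain possible for members without a detected difference.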
